A study of Saccharomyces cerevisiae with 36 samples.

Results

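The calcium pumps, channels and exchangers of Saccharomyces cerevisiae are described here by 6 genes, taken by their identifiers from the 6717 genes of the deposited tables: PMC1 (YGL006W), PMR1 (YGL167C), VCX1 (YDL128W), CCH1 (YGR217W), MID1 (YNL291C) and YVC1 (YOR087W). They were followed in wine strains 12 (dominant) and 11 (non-dominant), grown in mixed culture with each other or in single culture in natural Nebbiolo must and sampled at 12, 20 and 30 h, that is, at the start and the middle of exponential growth and at the start of the stationary phase. Both strains carried a fluorescent protein, GFP or eSapphire, expressed from a GPD promoter cassette in the genome, and the markers were also swapped between the strains. The labels do not say which marker a library's cells carried, so a marker effect was not tested. Cells were frozen, sonicated and sorted by fluorescence before their RNA was extracted, amplified and sequenced. There were 12 groups of strain, culture and time with 3 libraries each, 36 in all. Nothing in the labels says what replicates of the same number share. The study's methods describe aliquots taken at 3 phases of the fermentation and strains sorted apart from mixed cultures. Libraries of different times, or of the strains in mixed culture, can thus share a culture, which the main fit does not model. The p-values measure the spread between these libraries.

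A yeast cell keeps the calcium of its cytosol very low, and transporters of several membranes share this work. Calcium enters through a channel of the plasma membrane built from Cch1 and Mid1, and it is moved into the vacuole by the ATP-driven pump Pmc1 and the proton-driven exchanger Vcx1, and into the Golgi by the pump Pmr1, which also carries manganese. Yvc1 is a channel that releases calcium from the vacuole. When cytosolic calcium goes up, calmodulin activates the phosphatase calcineurin, which allows the transcription factor Crz1 to enter the nucleus, and PMC1 is among the genes that this pathway is known to induce, while calcineurin is known to inhibit Vcx1.

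The 36 libraries held from 35400 to 530376 reads on genes, with a median of 125756.5, and the 12 h libraries of single culture (133279 to 530376) were deeper than those of single culture at 20 h (35400 to 96123). The members took 54 to 1200 reads per library. Correlations over genes between a library and the mean of its group mates lay between 0.744 and 0.957. The purity of the sort can be followed in part with 3 genes chosen on these libraries (YLR227W-B, YNL284C-B and YNL284C-A). They had reads in every library of strain 11 in single culture. In every single culture library of strain 12 at most a small, preset share of that level was allowed, and they had 0 reads. The paper reports that most genes that differed between the strains in single culture at all times were retrotransposon genes, which can vary among strains. Whether these 3 genes are of that kind, or have copies elsewhere in the genome, was not tested. They may thus not be independent markers. The 12 h libraries of strain 12 from mixed culture held 0, 0 and 4 reads of them, the 20 h libraries 6, 2 and 3 and the 30 h libraries 2, 0 and 2, which was up to 17.4% of their mean level in strain 11 single cultures. In strain 11 from mixed culture their level was between 7.19% and 85.4% of that mean. At 30 h it was 10.2%, 64.7% and 30.6% there, against 6.15%, 0.0% and 17.4% in strain 12. The 17.4% is thus no upper limit on the share of strain 11 RNA in the strain 12 libraries. No gene met the same conditions for strain 12 (0 genes), so the reverse could not be followed in the same way. What lowered the level of the 3 genes in strain 11 from mixed culture was not tested.

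Levels per gene length separated the members into 2 tiers. RPKM, the reads of a gene scaled by its length and by the reads of its library, had a mean over the 12 groups of 303.6 for PMR1, 214.1 for VCX1 and 179.3 for PMC1, against 26.4 for YVC1, 23.2 for MID1 and 22.7 for CCH1. Each of the pumps and the exchanger had a higher RPKM than each of the 3 channel genes in 36 of 36 libraries. Within the upper tier PMR1 was above PMC1 in 32 libraries and above VCX1 in 26, and VCX1 was above PMC1 in 27. Within the lower tier no order held, since CCH1 was above MID1 in 16 libraries and above YVC1 in 14, and YVC1 was above MID1 in 18.

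**Figure D1:**
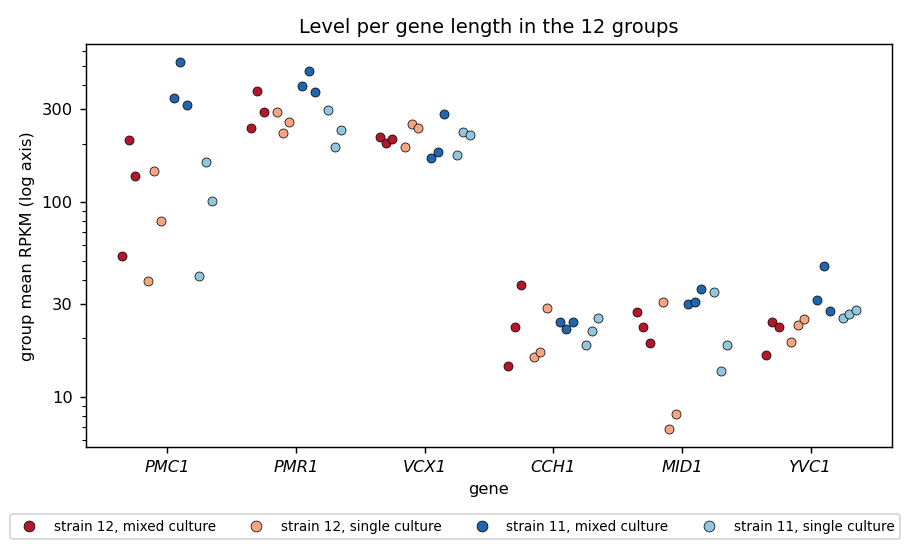
Mean RPKM of each gene (log axis) in the 12 groups of strain and culture, where the points of 1 colour run from 12 to 30 h from left to right. PMC1 spans 39.3 to 523.2 RPKM, while the group means of VCX1 stay between 168.0 and 282.5 RPKM and those of CCH1, MID1 and YVC1 between 6.82 and 47.2 RPKM.

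The members also differed in how far they moved between groups. The highest group mean of RPKM was 13.3 times the lowest for PMC1, against 2.46 times for PMR1, 2.62 times for CCH1, 2.87 times for YVC1 and 1.68 times for VCX1. For MID1 it was 5.24 times, on a total of only 259 reads in all libraries. The spread between replicates, as the median over groups of the SD of CPM relative to its mean, was 13.3% for VCX1, 18.1% for PMR1, 21.6% for PMC1, 28.5% for CCH1, 38.9% for YVC1 and 74.4% for MID1. CPM is the count of a gene scaled by the reads of its library and its TMM factor, and not by gene length.

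Over 23 planned comparisons of groups, edgeR's quasi-likelihood test gave 11 calls among the 115 tests of members at a p of at most 0.05 after Benjamini-Hochberg adjustment over all genes tested. The share of all genes called in the same comparisons ran from 0.0% to 28.8%. Of the calls, 10 belonged to PMC1 and 1 to PMR1. VCX1, CCH1 and YVC1 had 0 calls each and also 0 comparisons with an unadjusted p under 0.05. MID1 did not pass the filter on low counts, so 5 of the 6 members were tested. All levels are shares of a library's RNA, in which fewer cells that express a gene and less RNA per cell cannot be told apart.

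PMC1, the vacuolar pump, lies on the plus strand of chromosome VII at 485925 to 489446 in the Saccer2 coordinates of the deposited tables, as 1 exon that overlaps no other gene. It took 3246 reads in all libraries and had reads in each of them. Because it carried nearly all calls, the region before its start codon is shown, read from the RefSeq R64 assembly of the laboratory strain S288C and not from strains 12 and 11. The 300 bases before the start codon of each member were searched on both strands for the binding consensus of Crz1, spelled GNGGCGCA or GNGGCTCA. PMC1 held 1 match, GAGGCGCA on the reverse strand, from 143 to 136 bases before the start codon, and the other 5 members held 0. Among 6001 protein-coding genes 2.0% held either form in the same window (120 genes), 60 of them GNGGCGCA and 62 GNGGCTCA. The stretch of 200 bases printed here, chrVII:485621-485820 on the plus strand of R64, ends 101 bases before the start codon, and capitals mark the match as it reads on this strand.
PMC1 upstream region: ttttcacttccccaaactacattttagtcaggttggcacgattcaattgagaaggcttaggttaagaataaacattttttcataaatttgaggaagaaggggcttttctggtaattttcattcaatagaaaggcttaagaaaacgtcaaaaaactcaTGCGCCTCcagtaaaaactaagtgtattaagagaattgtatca
The match is a description of these letters and was not tested for binding in any group.

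PMC1 was higher in mixed than in single culture in strain 11 at each time. At 12 h the 3 libraries of strain 11 had 1159, 1246 and 1099 CPM in mixed culture, against 159.6, 159.6 and 147.3 CPM in single culture. The mean was 1168 ± 74.1 CPM in mixed culture and 155.5 ± 7.12 CPM in single culture (SD, n = 3 each), and no library of one culture came near those of the other. The log2 fold change of mixed over single culture was 2.90 with a standard error of 0.31, a 7.46-fold difference with a 95% interval of 4.87 to 11.4 (adjusted p = 1.5e-10). It was the only member called at this time, when 8.61% of all 3670 genes tested were called in either direction.

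At 20 h PMC1 had 2314, 1439 and 1747 CPM in strain 11 from mixed culture, against 684.4, 663.9 and 474.9 CPM in single culture. The difference was 3.01-fold (log2 fold change 1.59, SE 0.30, adjusted p = 0.000403), and 4.99% of all genes were called. At 30 h it had 774.7, 1270 and 1235 CPM in mixed culture, against 393.6, 468.1 and 261.1 CPM in single culture, a 2.87-fold difference (log2 fold change 1.52, SE 0.31, adjusted p = 0.000939) beside 3.81% of all genes called. The libraries of the cultures did not overlap at any of these times, which was so for 31.3%, 22.3% and 18.8% of all genes at 12, 20 and 30 h. In each of these 3 comparisons the call held when any of the 6 libraries was left out.

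In strain 12 the same comparison gave smaller values and no call. At 12 h PMC1 had 217.1, 145.2 and 268.5 CPM in mixed culture, against 159.9, 96.7 and 190.4 CPM in single culture, and the groups overlapped. At 20 h it had 619.8, 801.8 and 740.8 CPM in mixed culture, against 654.1, 479.3 and 509.7 CPM in single culture, again with overlap (the libraries did not overlap for 16.5% and 22.6% of all genes at 12 and 20 h). At 30 h it had 451.9, 378.3 and 627.2 CPM in mixed culture, against 273.1, 338.2 and 271.7 CPM in single culture, where every mixed culture library lay above every single culture one, as in 11.4% of all genes. The log2 fold changes were 0.47, 0.38 and 0.69, with adjusted p of 0.526, 0.601 and 0.616. Among the members strain 12 had 0 calls at each time, by edgeR and by DESeq2, and 2 unadjusted p under 0.05, for PMC1 at 30 h and PMR1 at 20 h. Of all genes 2.59%, 1.28% and 0.218% were called in strain 12. The strain 11 marker genes described above were found in the strain 12 libraries from mixed culture at 0 to 17.4% of their mean level in strain 11 single cultures. The part of strain 11 RNA in these values was not tested. Without the library with the highest of these shares, replicate 3 at 30 h, the log2 fold change at 30 h was 0.51. The share of that library rests on 2 reads, and its PMC1 level was also the highest of its group (627.2 CPM). Its removal thus lowers the value whatever its share.

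**Figure D2:**
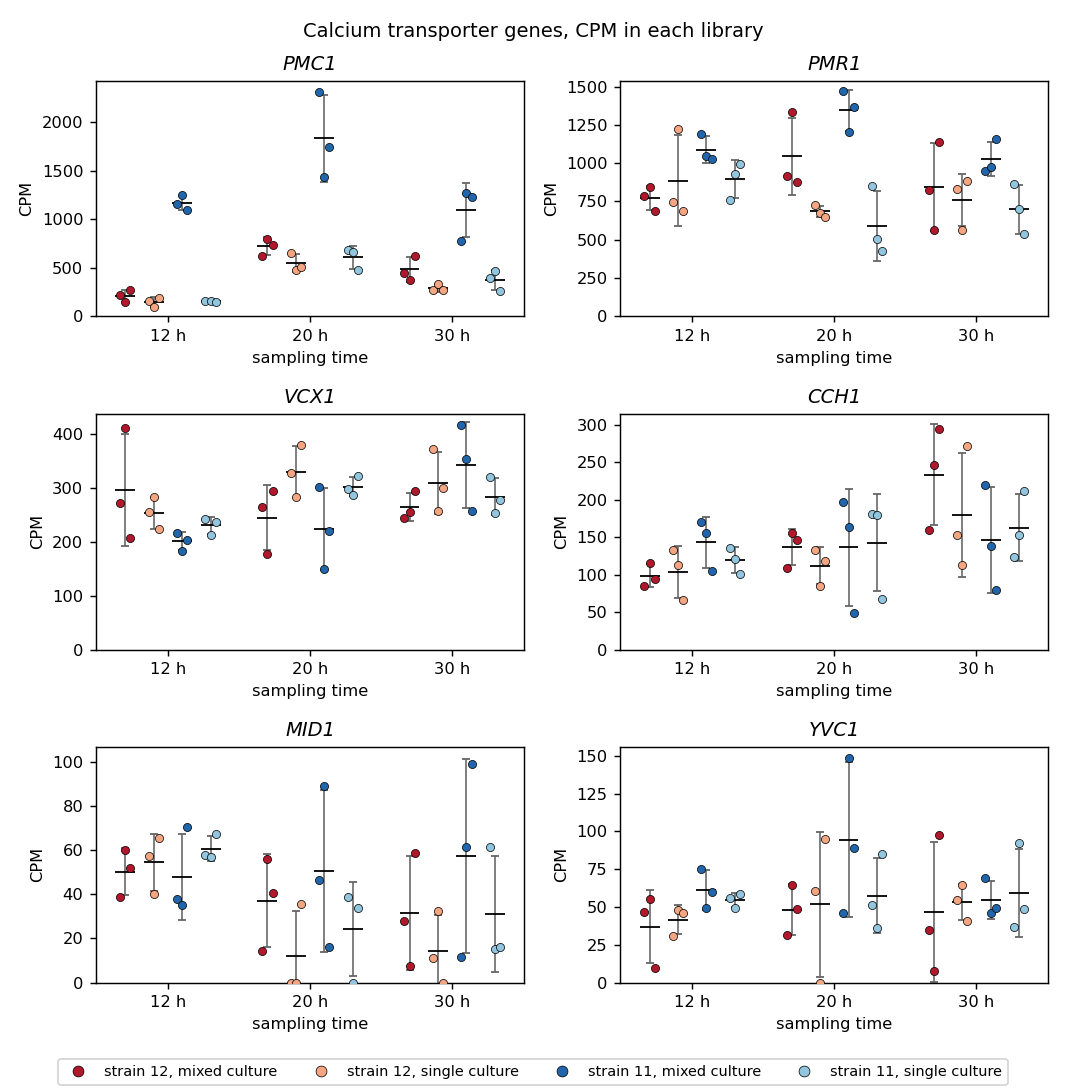
CPM of the 6 genes in each of the 36 libraries against sampling time, with black lines for the mean of 3 libraries and bars for the SD (cut at 0). The strain 11 libraries from mixed culture hold PMC1 between 774.7 and 2314 CPM, above all strain 11 libraries from single culture (147.3 to 684.4 CPM) at any time.

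The response of PMC1 to mixed culture was compared between the strains as the log2 fold change of strain 11 minus that of strain 12. At 12 h this difference was 2.43 (SE 0.44, adjusted p = 0.000778), in a comparison that called 1.17% of all genes, and it stayed past the threshold without any of the 12 libraries (2.21 to 2.65). At 20 h it was 1.21 with a 95% interval of 0.36 to 2.07 and an adjusted p of 0.419, and at 30 h it was 0.83 with an adjusted p of 0.624, so a difference in response at these times was not past the threshold, where 0.0817% and 0.0272% of all genes were. For the other members this difference was no call at any time, with values of 0.43 to 0.56 for PMR1, -0.42 to 0.54 for VCX1, -0.48 to 0.34 for CCH1 and 0.30 to 1.04 for YVC1 (adjusted p = 0.76 to 0.987), and of -0.47 to 0.04 for MID1 without the filter. Within strain 11 the log2 fold change of mixed over single culture at 20 h minus that at 12 h was -1.31 (adjusted p = 0.0811), and at 30 h minus that at 12 h it was -1.38 (adjusted p = 0.0646), neither of them a call. Both of these contrasts were added after the values had been seen. They called 2.64% and 2.45% of all genes, and DESeq2 placed PMC1 past the threshold in both, with adjusted p of 0.0272 and 0.0184.

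The strains did not separate by PMC1 in single culture. Strain 12 had a mean of 149.0 ± 47.8, 547.7 ± 93.4 and 294.3 ± 37.98 CPM at 12, 20 and 30 h, against 155.5 ± 7.12, 607.7 ± 115.5 and 374.3 ± 104.9 CPM in strain 11 (SD, n = 3 each). The log2 fold changes of strain 12 over strain 11 were -0.04, -0.14 and -0.38, with adjusted p of 0.997, 0.964 and 0.804. No member was called between the strains in single culture (0 calls and 0 unadjusted p under 0.05 by edgeR, 0 calls by DESeq2), where 1.04%, 0.572% and 0.518% of all genes were.

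In mixed culture PMC1 was lower in strain 12 than in strain 11 at each time. Strain 12 averaged 210.3 ± 61.9, 720.8 ± 92.7 and 485.8 ± 127.9 CPM at 12, 20 and 30 h, against 1168 ± 74.1, 1833 ± 443.9 and 1093 ± 276.2 CPM in strain 11 (SD, n = 3 each). The log2 fold changes were -2.47, -1.35 and -1.21, with adjusted p of 4.99e-08, 0.0124 and 0.0303, beside 5.04%, 0.191% and 0.899% of all genes called. The libraries of the strains did not overlap at any of these times, as in 28.3%, 20.1% and 15.5% of all genes. The call at 12 h held without any of the libraries. The call at 20 h was lost without strain 11 replicate 1 (adjusted p = 0.245) or 3 (0.0507) and without strain 12 replicate 1 (0.162), 2 (0.0538) or 3 (0.105). The call at 30 h was lost without strain 11 replicate 2 (adjusted p = 0.281) or 3 (0.12) and without strain 12 replicate 1 (0.119) or 2 (0.262). These comparisons share the strain 11 and strain 12 libraries from mixed culture with the comparisons of cultures.

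**Figure D3:**
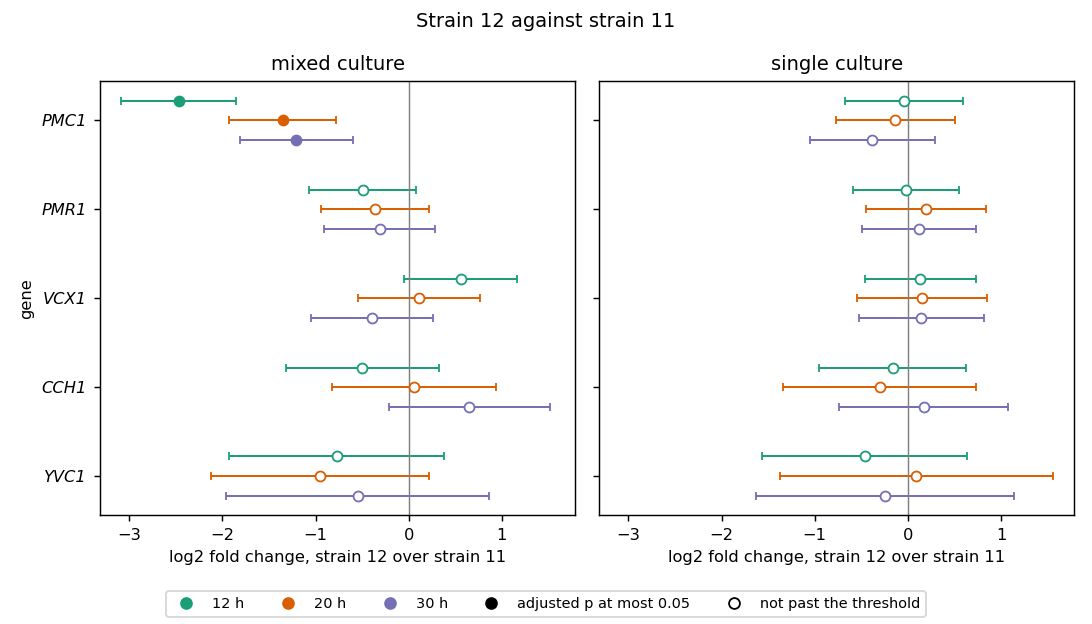
Log2 fold change of strain 12 over strain 11 for the 5 members tested (points) with its 95% interval (bars), in mixed and in single culture at 3 times, where filled points have an adjusted p of at most 0.05. PMC1 in mixed culture gives the 3 filled points, at -2.47, -1.35 and -1.21, and in single culture its values are -0.04, -0.14 and -0.38.

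Sampling time moved PMC1 too. It was higher at 20 h than at 12 h by 1.77 on the log2 scale in strain 12 mixed culture (adjusted p = 8.98e-06), by 1.86 in strain 12 single culture (1.1e-05) and by 1.96 in strain 11 single culture (2.22e-06). In strain 11 mixed culture, with its mean of 1168 CPM at 12 h, the difference was 0.65 and no call (adjusted p = 0.192). These were comparisons in which 23.8%, 25.7%, 28.8% and 5.78% of all genes were called, so a call between 12 and 20 h was common among all genes. In single culture every 12 h library was also deeper than every 20 h library, and the part of depth in these values was not tested. From 20 to 30 h the log2 fold changes of PMC1 were -0.60 in strain 12 mixed, -0.92 in strain 12 single, -0.74 in strain 11 mixed and -0.67 in strain 11 single culture, with adjusted p of 0.357 to 0.903. Few genes were called in those 4 comparisons, at 0.0272%, 0.627%, 0.0% and 0.708% of all genes in the same order.

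Ordered by mean CPM of PMC1, most of the 12 groups overlapped the next one by their libraries. Strain 12 single, strain 11 single and strain 12 mixed culture at 12 h were the lowest, with means of 149.0 to 210.3 CPM. Strain 12 mixed culture at 12 h (up to 268.5 CPM) did not overlap the next group, strain 12 single culture at 30 h (from 271.7 CPM), but it overlapped the one after, strain 11 single culture at 30 h (from 261.1 CPM). From strain 12 single culture at 30 h (mean 294.3 CPM) up to strain 11 mixed culture at 30 h (1093 CPM) and 12 h (1168 CPM) each group overlapped the next. Strain 11 mixed culture at 20 h stood above the rest, with 1439 CPM as its lowest library.

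PMR1, the Golgi pump for calcium and manganese, was the most abundant member and moved less. It lies on the minus strand of chromosome VII at 187622 to 190474, where YGL168W overlaps it on the plus strand. That gene took 239 reads in all against 5115 for PMR1, and whether strand was used in the counting is not given in the sources used here. In strain 11 at 20 h PMR1 had 1469, 1202 and 1365 CPM in mixed culture, against 852.3, 502.4 and 424.0 CPM in single culture. The groups did not overlap, as in 22.3% of all genes, and the difference was 2.25-fold (log2 fold change 1.17, SE 0.31, adjusted p = 0.0149). The call was lost without strain 11 mixed culture replicate 1 (adjusted p = 0.0523) or without strain 11 single culture replicate 2 (0.0638) or 3 (0.102).

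At the other times PMR1 was not called in strain 11. At 12 h it had 1187, 1049 and 1024 CPM in mixed culture, against 760.0, 929.5 and 997.3 CPM in single culture, and at 30 h 948.2, 977.2 and 1156 CPM in mixed culture, against 861.0, 698.4 and 538.5 CPM in single culture. The libraries did not overlap at either time, as in 31.3% and 18.8% of all genes, and the log2 fold changes were 0.28 and 0.55 (adjusted p = 0.642 and 0.337). In strain 12 the values at 20 h were 918.2, 1336 and 879.2 CPM in mixed culture, against 726.8, 676.7 and 651.9 CPM in single culture, without overlap, as in 22.6% of all genes, and with a log2 fold change of 0.61 and an adjusted p of 0.36. At 12 and 30 h the strain 12 log2 fold changes were -0.19 and 0.12, and the groups overlapped. The difference in response at 20 h, strain 11 minus strain 12, was 0.56 with a 95% interval of -0.30 to 1.42 (adjusted p = 0.826), so the call in strain 11 alone does not show that the strains differed. Between the strains PMR1 had log2 fold changes of -0.50 to 0.19 in 6 comparisons (adjusted p = 0.367 to 0.997), and between times -0.58 to 0.44 in 8 comparisons (adjusted p = 0.147 to 0.999).

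**Figure D4:**
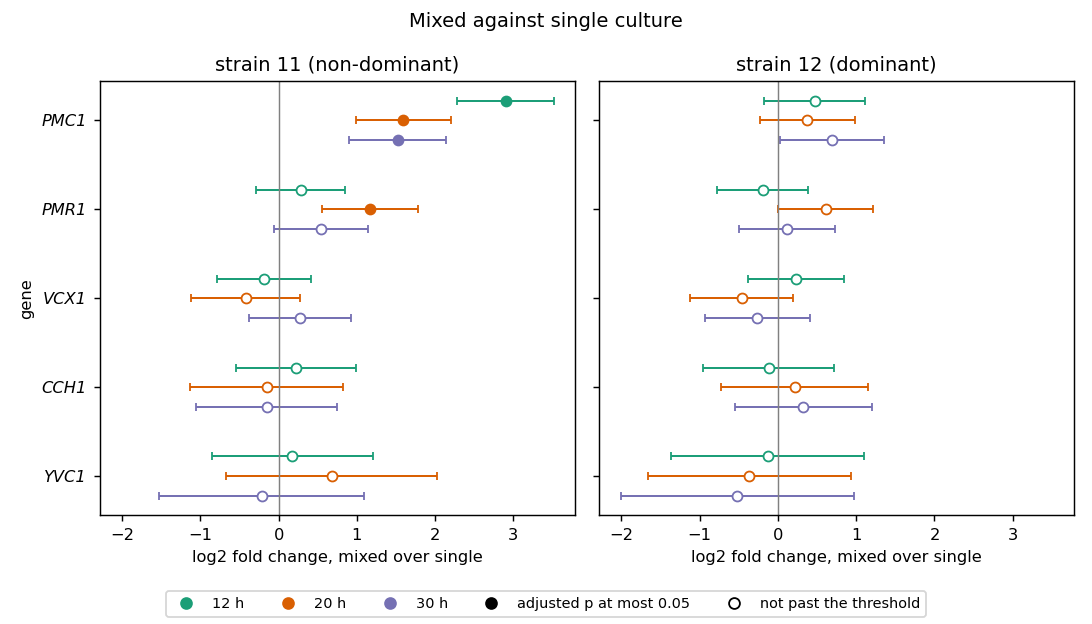
Log2 fold change of mixed over single culture for the 5 members tested (points) with its 95% interval (bars), for strain 11 and strain 12 at 3 times, where filled points have an adjusted p of at most 0.05. Filled points are PMC1 in strain 11 at 12, 20 and 30 h (2.90, 1.59 and 1.52) and PMR1 in strain 11 at 20 h (1.17), and strain 12 has none.

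The ratio of the pumps within a library, RPKM of PMC1 over RPKM of PMR1, does not depend on the scaling between libraries. At 12 h it was 0.791 to 0.962 in strain 11 mixed culture, against 0.120 to 0.170 in strain 11 single culture. In strain 12 at 12 h it was 0.140 to 0.316 in mixed culture, against 0.0640 to 0.224 in single culture, which overlap. At 20 h it was 0.970 to 1.28 in strain 11 mixed culture, against 0.651 to 1.07 in single culture, and in strain 12 it was 0.486 to 0.682 in mixed culture, against 0.574 to 0.729 in single culture. At 30 h it was 0.662 to 1.05 in strain 11 mixed culture, against 0.370 to 0.543 in single culture, and in strain 12 it was 0.442 to 0.544 in mixed culture, against 0.249 to 0.486 in single culture. The ratio separated the cultures of strain 11 at 12 and 30 h and not at 20 h. How often the ratio of any 2 genes does so was not tested. PMR1 itself had log2 fold changes of 0.28, 1.17 and 0.55 in strain 11 at 12, 20 and 30 h, and only that at 20 h was called. PMC1 passed PMR1 in RPKM in only 4 of 36 libraries.

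**Figure D5:**
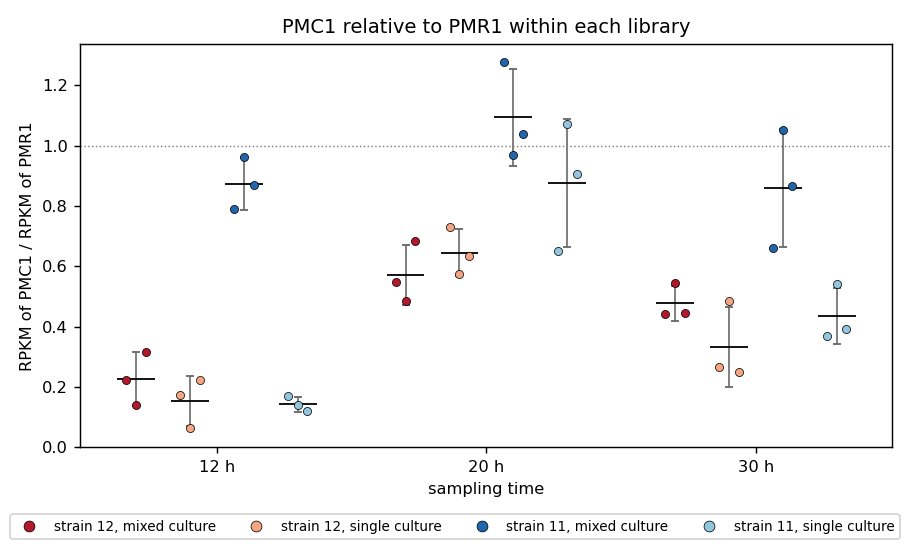
RPKM of PMC1 divided by RPKM of PMR1 in each library against sampling time, with black lines for the mean of 3 libraries, bars for the SD and a dotted line at equal levels. At 12 h the 3 strain 11 libraries from mixed culture lie between 0.791 and 0.962, apart from the other 3 groups, which lie between 0.0640 and 0.316.

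VCX1, the vacuolar exchanger that works beside Pmc1, was the steadiest member. It lies on the plus strand of chromosome IV at 232652 to 233887 and took 1456 reads. In strain 11 it had 216.7, 183.0 and 202.7 CPM at 12 h in mixed culture, against 241.4, 212.9 and 235.7 CPM in single culture. At 20 h it had 300.8, 148.4 and 219.3 CPM in mixed culture, against 297.0, 287.1 and 322.2 CPM in single culture, and at 30 h 416.3, 353.9 and 256.8 CPM in mixed culture, against 319.8, 253.2 and 277.4 CPM in single culture. The cultures overlapped at each time in both strains. The log2 fold changes of mixed over single culture were -0.19, -0.42 and 0.27 in strain 11 and 0.23, -0.46 and -0.26 in strain 12 at 12, 20 and 30 h, with adjusted p of 0.542 to 0.895. The 95% intervals of these 6 values reached from -1.12 to 0.93, so a change within these intervals was not detectable at this depth. Between the strains VCX1 had log2 fold changes of -0.39 to 0.56 (adjusted p = 0.327 to 0.997) and between times -0.29 to 0.60 (0.382 to 0.999).

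Set against PMC1 in the same library, VCX1 had the higher RPKM in every group of single culture. The ratio of VCX1 to PMC1 in RPKM was 0.419 to 0.533 in strain 11 mixed culture at 12 h, against 3.80 to 4.56 in strain 11 single culture. In strain 12 at 12 h it was 2.20 to 8.06 in mixed culture, against 3.34 to 8.31 in single culture. At 20 h the ratio in strain 11 was 0.294 to 0.371 in mixed culture, against 1.23 to 1.94 in single culture. In strain 12 at 20 h it was 0.628 to 1.214 in mixed culture, against 1.425 to 2.122 in single culture. At 30 h, mixed against single culture, it was 0.593 to 1.532 against 1.542 to 3.029 in strain 11. In strain 12 at 30 h it was 1.336 to 1.92 against 2.172 to 3.877. In strain 11 mixed culture at 12 and 20 h PMC1 thus had more RNA per length than VCX1 in every library. In all single culture libraries VCX1 had more. At 20 and 30 h the ratio was lower in mixed than in single culture in both strains, without overlap. How often the ratio of any 2 genes does so was not tested. Single genes did not overlap in 22.3% and 18.8% of cases in strain 11 at 20 and 30 h, and in 22.6% and 11.4% in strain 12. In strain 12 neither PMC1 (adjusted p = 0.601 and 0.616, edgeR) nor VCX1 (0.542 and 0.895) was called at these times.

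CCH1 and MID1, which encode the subunits of the plasma membrane calcium channel, were both rare. CCH1 lies on the plus strand of chromosome VII at 924699 to 930818 and took 753 reads, 3 to 68 per library. MID1 lies on the minus strand of chromosome XIV at 84169 to 85815 and took 259 reads, with a median of 5 per library. In strain 11 CCH1 had 169.6, 154.9 and 104.5 CPM at 12 h in mixed culture, against 135.6, 120.6 and 101.0 CPM in single culture. At 20 h it had 196.7, 163.2 and 48.7 CPM in mixed culture, against 180.8, 179.4 and 67.8 CPM in single culture, and at 30 h 219.7, 138.5 and 79.0 CPM in mixed culture, against 123.0, 153.5 and 212.2 CPM in single culture. All of these pairs overlapped. The 6 log2 fold changes of mixed over single culture were between -0.15 and 0.33 (adjusted p = 0.81 to 0.939) with 95% intervals that reached from -1.13 to 1.20. Between the strains CCH1 had log2 fold changes of -0.50 to 0.65 (adjusted p = 0.564 to 0.997) and between times -0.11 to 0.74 (0.48 to 0.982). The highest group mean of CCH1 was that of strain 12 mixed culture at 30 h, 233.6 ± 68.1 CPM, against 179.1 ± 82.7 CPM in strain 12 single culture (SD, n = 3 each), and the groups overlapped.

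MID1 had 0 reads in 4 of the 36 libraries, all from single culture at 20 or 30 h. There 3 reads, taken as an approximate upper limit for a count of 0, would be 36.3 to 84.6 CPM. These limits cover counting error only, and they lie within the range of 7.72 to 98.8 CPM of the libraries that had reads, so absence was not detectable at this depth. At 12 h MID1 had 37.7, 35.2 and 70.4 CPM in strain 11 mixed culture, against 57.9, 56.8 and 67.3 CPM in strain 11 single culture. In strain 12 at 12 h it had 38.8, 60.1 and 51.8 CPM in mixed culture, against 57.4, 40.3 and 65.7 CPM in single culture. Both pairs overlapped. At 20 h there were 4, 6 and 2 reads of it in strain 11 mixed culture, against 3, 0 and 2 in single culture, and 5, 13 and 5 in strain 12 mixed culture, against 0, 0 and 3 in single culture. At 30 h there were 1, 8 and 10 reads in strain 11 mixed culture, against 5, 2 and 1 in single culture, and 4, 1 and 3 in strain 12 mixed culture, against 1, 2 and 0 in single culture. In CPM these pairs overlapped as well. When no filter was applied (6400 genes), the log2 fold changes of mixed over single culture at 12, 20 and 30 h were -0.24, 0.88 and 0.99 in strain 11 (adjusted p = 0.94, 0.757 and 0.651) and -0.14, 1.35 and 0.96 in strain 12 (adjusted p = 1.0, 0.648 and 0.883), so the later values were above 0 in both strains, with standard errors of 0.78 to 1.08. Those of strain 12 over strain 11 lay between -1.15 and -0.04 (adjusted p = 0.67 to 1.0) and those between times between -1.99 and 0.35 (0.132 to 1.0). With edgeR 0 of the 25 comparisons called MID1, and 1 had an unadjusted p under 0.05. At 12 h the ratio of CCH1 to MID1 in RPKM, a comparison per length, was 0.399 to 1.21 in strain 11 mixed culture, against 0.403 to 0.631 in single culture, and 0.489 to 0.592 in strain 12 mixed culture, against 0.269 to 0.754 in single culture. At 30 h the same ratio ran between 0.215 and 8.61 over libraries, on 1 to 10 reads of MID1 each where it had any.

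YVC1, the vacuolar release channel, gave no call either. It lies on the plus strand of chromosome XV at 487709 to 489736 and took 293 reads, with 0 in 1 library, strain 12 single culture replicate 2 at 20 h, where the limit of 3 reads is 84.6 CPM. In strain 11 it had 75.4, 49.3 and 59.7 CPM at 12 h in mixed culture, against 55.9, 49.7 and 58.9 CPM in single culture. At 20 h it had 46.3, 148.4 and 89.4 CPM in mixed culture, against 51.7, 35.9 and 84.8 CPM in single culture. The libraries of the cultures overlapped in both strains at each time. Its 6 log2 fold changes of mixed over single culture lay between -0.52 and 0.68 (adjusted p = 0.665 to 0.949), with 95% intervals that reached from -2.01 to 2.02. Between the strains they lay between -0.95 and 0.09 (adjusted p = 0.516 to 0.997) and between times between -0.76 and 0.62 (0.527 to 0.999). The interval of YVC1 in strain 11 at 20 h, -0.67 to 2.02, also holds the value of PMC1 in that comparison.

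Over the members tested, the median log2 fold change of mixed over single culture in strain 11 was 0.22, 0.68 and 0.27 at 12, 20 and 30 h, against -0.05, -0.02 and -0.02 over all genes. In strain 12 the median of the members was -0.12, 0.21 and 0.12, against -0.02, 0.01 and -0.02 over all genes. The calls thus rested on PMC1, and on PMR1 at 20 h, and not on the group as a whole.

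The genes that act on or beside these transporters were described in 3 lists. Of the calcineurin and calmodulin list, 9 of 9 genes were tested, and in strain 11 4, 3 and 4 of them were higher in mixed culture at 12, 20 and 30 h with 0 lower, in comparisons that called 8.61%, 4.99% and 3.81% of all genes. CMK2, a calmodulin-dependent protein kinase, averaged 1278 ± 147.9 CPM in strain 11 mixed culture at 12 h and 187.5 ± 42.6 CPM in single culture (log2 fold change 2.76, adjusted p = 6.79e-08). RCN2, which is annotated as a regulator of calcineurin, averaged 510.8 ± 127.8 CPM in mixed culture and 93.8 ± 40.5 CPM in single culture (2.46, 2.74e-06). CRZ1 itself averaged 328.3 ± 78.3 CPM in mixed culture and 126.8 ± 51.8 CPM in single culture (1.38, 0.00954). These 3 genes were called at each time in strain 11. The list was chosen with earlier results of these data known. The paper, from the same experiment, also lists these 3 genes as higher in strain 11 in mixed culture. The counts of the list are thus no independent support for the pathway. RCN1, an inhibitor of calcineurin, was called at 12 and 30 h, with 26, 10 and 63 reads in strain 11 mixed culture at 12 h, against 4, 0 and 0 reads in single culture.

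In strain 12 the list had 0, 1 and 0 genes higher and 0 lower at 12, 20 and 30 h, where 2.59%, 1.28% and 0.218% of all genes were called. The call was CMK2 at 20 h, with 749.9 ± 249.3 CPM in mixed culture and 206.9 ± 63.0 CPM in single culture (SD, n = 3 each, log2 fold change 1.80, adjusted p = 0.00971). PMC1 had a log2 fold change of 0.38 in that comparison and was not called. CRZ1 and RCN2 had 1.60 and 1.36 there (adjusted p = 0.0575 and 0.0843), against 1.67 and 2.29 in strain 11, and at 30 h CMK2 had 1.70 in strain 12 (0.0941), against 2.98 in strain 11. The response of strain 11 minus that of strain 12 was no call for CRZ1 (0.07, adjusted p = 0.986), RCN2 (0.93, 0.767) or CMK2 (0.96, 0.733) at 20 h. The response of strain 11 minus that of strain 12 at 12 h was past the threshold for CMK2 (2.79, adjusted p = 0.000832) and RCN2 (2.69, adjusted p = 0.00388), beside PMC1. The genes of calcineurin itself, CNA1, CMP2 and CNB1, and of calmodulin, CMD1, were among those not called, with log2 fold changes in strain 11 at 12 h of 0.03, -0.30, 1.48 and -0.51. The median of the list in strain 11 was 1.38, 0.63 and -0.12 at 12, 20 and 30 h.

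Other genes tied to calcium or manganese transport could be tested for 5 of 9, since GDT1, RCH1, ECM7 and FIG1 had too few reads. In strain 11 at 12 h 2 were higher in mixed culture and 0 lower, where 8.61% of all genes were called. FLC1, a putative flavin transporter, averaged 746.3 ± 153.0 CPM in mixed culture and 298.4 ± 92.4 CPM in single culture (log2 fold change 1.305, adjusted p = 0.0024), and its relative FLC2 averaged 550.4 ± 79.3 CPM in mixed culture and 229.1 ± 36.98 CPM in single culture (1.25, 0.00376). At 20 and 30 h in strain 11, and at each time in strain 12, 0 genes of this list were called. In strain 11 FLC1 and FLC2 had log2 fold changes of 1.04 and 1.06 at 20 h (adjusted p = 0.0546 and 0.052) and of 0.85 and 0.97 at 30 h (0.156 and 0.0839). Of the vacuolar proton ATPase, which builds the proton gradient that Vcx1 uses, 13 of 14 genes were tested and 0 were called between mixed and single culture in either strain at any time, with a lowest adjusted p of 0.0516 in strain 12 at 12 h. In strain 12 mixed culture 6 of them were lower at 20 h than at 12 h, where 23.8% of all genes were called.

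The genes whose means over the 12 groups followed each member most closely are given as a description, among 1703 genes with a mean of at least 20 reads (1704 for YVC1). For PMC1 they were LAP2 (Pearson r = 0.969), FMP40 (0.955) and MNR2 (0.951). For PMR1 they were CDC13 (0.947), RPN1 (0.929) and PAM1 (0.91), for VCX1 SAM3 (0.778), GRX2 (0.768) and HSP31 (0.745), for CCH1 ITC1 (0.853), VID28 (0.842) and SEF1 (0.836), and for YVC1 RPT5 (0.876), HRD3 (0.811) and RIM101 (0.766). Among the members themselves r over group means was 0.515 between PMC1 and PMR1, -0.175 between PMC1 and VCX1 and -0.652 between PMR1 and VCX1. The group means rest on the same libraries for every gene, and these values were not tested.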

How the data were processed

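Each library of sorted yeast cells was placed in 1 of 12 groups (strain, culture, time) from its label. For each library the authors deposited the read count of each gene and exon, and RPKM values of each gene, that is, reads scaled by gene length and by the reads counted in the library. The RPKM were reproduced from the deposited counts for 100% of the values, and the exon counts summed to the gene count for all 216 values of the members. Alignment to Saccer2 and a test with Cuffdiff (Cufflinks 1.3.0) are named in the study's methods. Whether strand was used, and any limit on mapping quality, is not given in the sources used here. RNA had been amplified before sequencing, so that reads are not independent molecules and all limits cover counting error only.

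Counts of all 36 libraries were fitted with edgeR 4.0.16 (limma 3.58.1, R 4.3.3), with filterByExpr (3670 of 6717 genes kept), TMM factors (0.888 to 1.08) and 1 coefficient per group. The common dispersion was 0.0833. A gene was called at a p of at most 0.05 after Benjamini-Hochberg adjustment over all genes tested. Intervals are 95% intervals of the fit. The step was first tested on simulated data. An exact permutation test of a single gene could not pass the threshold with 3 libraries per group, and none was run. No replicates were copies of each other, since counts of the 36 pairs within groups differed by chi-square values of 2.01 to 8.84 per degree of freedom. No outlier was looked for, since groups of 3 libraries are too small.

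The members and the 3 gene lists were chosen with earlier results of these data known. The rule was that all 6 members are named in every comparison, singly or as a range over comparisons, and a gene of a list is named where it was called between mixed and single culture. The 3 genes most like a member were those with the highest Pearson correlation over group means of log2 CPM. Alternatives were DESeq2 1.42.0, RLE factors, no filter, only the libraries compared, a block for the replicate number, limma on log2(RPKM + 1) and each library left out in turn. The numbers 1, 2 and 3 paired the libraries only between the strains at 12 h, where the deviations of same-numbered libraries from their group means correlated by 0.453, 0.288 and 0.38 in single culture and by 0.196, 0.104 and 0.173 in mixed culture. This pairing comes from the correlations and not from the labels.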

Additional observations from a re-analysis of the deposited data

Results flagged for a closer look

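The response of PMC1 to mixed culture differed between the strains at 12 h. The log2 fold change of mixed over single culture in strain 11 minus that in strain 12 was 2.43 (edgeR interaction contrast, SE 0.44, adjusted p = 0.000778). It was the only call of a member in the contrasts that compare the response to mixed culture between the strains. Every strain 11 library from mixed culture (1099 to 1246 CPM) lay above every strain 11 library from single culture (147.3 to 159.6 CPM), while those of strain 12 overlapped (145.2 to 268.5 CPM in mixed culture, against 96.7 to 190.4 CPM in single culture).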

How the results depend on the processing

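Counts of called members per kind of comparison were 4 for mixed over single culture in strain 11, 0 in strain 12, 1 for the difference in response, 3 for strain 12 over strain 11 in mixed culture and 0 in single culture, 2 for time in single culture and 1 for time in mixed culture. With 1 library left out they ran from 3 to 4, 0 to 0, 1 to 1, 2 to 3, 0 to 0, 2 to 3 and 1 to 1 in the same order. DESeq2 and RLE factors gave the same counts. With limma on log2(RPKM + 1) only 1 call was left between the strains in mixed culture, since PMC1 had adjusted p of 0.111 at 20 h and 0.0907 at 30 h. With only the libraries compared, time in mixed culture had 2 calls, as PMC1 in strain 11 at 20 h against 12 h reached an adjusted p of 0.0424. The call of PMC1 between the strains in mixed culture at 30 h was also lost without the filter (0.0666) and with only the libraries compared (0.0956), which left 2 calls there. The added contrasts within strain 11 passed the threshold with DESeq2 (-1.30 and -1.38), at 20 h with only the libraries compared (-1.36, adjusted p = 0.0288) and at 30 h without strain 11 single culture replicate 3 (-1.54, adjusted p = 0.0462). The causes were not tested.

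With the replicate number as a block the counts of calls were again 4, 0, 1, 3, 0, 2 and 1. In the paired comparisons at 12 h, PMC1 in strain 12 over strain 11 had a log2 fold change of -2.49 in mixed culture (adjusted p = 7.38e-08) and -0.07 in single culture (adjusted p = 0.993), and the block changed no call of a member in any comparison.

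Signs turned only for values that were not called. YVC1 was 0.0643 in strain 11 at 30 h and 1.19 in strain 12 at 20 h with limma, and PMC1 in strain 12 over strain 11 single culture at 12 h was 0.0039 with DESeq2. With 1 library left out, mixed over single culture in strain 11 ran from -0.55 to 0.36 for CCH1 at 20 h, from -0.51 to 0.18 for CCH1 at 30 h and from -0.45 to 0.37 for YVC1 at 30 h. In strain 12 it ran from -0.0647 to 0.467 for VCX1, from -0.62 to 0.40 for YVC1, from -0.33 to 0.12 for PMR1 and from -0.33 to 0.20 for CCH1 at 12 h, from -0.66 to 0.28 for YVC1 at 20 h, and from -1.24 to 0.11 for YVC1 and from -0.12 to 0.36 for PMR1 at 30 h. PMC1 in strain 12 over strain 11 in single culture at 12 h ran from -0.18 to 0.16. Depth limits MID1, CCH1 and YVC1, with medians of 5, 17.5 and 6 reads per library.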
